A study of Mus musculus with 4 samples.

Results

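The genes described here are 34 transcripts by which microglia are recognised in mouse brain tissue. They were listed by name, with earlier results of these data known, and matched to Ensembl gene IDs. All 34 were found among the 26328 genes that had a value in any of the 4 hippocampal samples, and all 34 were among the 18436 genes tested. The samples were hippocampi of 2 WT and 2 Lsd1 KI male mice of the C57BL/6 strain. In the KI mice the serine of LSD1 that PKCα phosphorylates is replaced by alanine by a germline knock-in (the Lsd1 SA/SA genotype), so every cell type of the animal carries the change, and WT littermates served as controls. An age of 8 to 15 weeks is given for the mice of the behavioural experiments of the study, and no separate age is given for those used for sequencing. Whether the replicates 1 and 2 of a group were single animals is not given in the sources used here, so the p-values measure only the spread between these samples.

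Microglia are the resident macrophages of the brain. They arise from yolk sac progenitors, depend for survival on signals through the CSF1 receptor, and survey the tissue with motile processes that follow purines and the neuronal chemokine CX3CL1. They prune synapses, clear dying cells through phagocytic receptors and lysosomes, and respond to injury through immunoreceptors that signal by ITAM adaptors. In the healthy state they hold high levels of a set of surface proteins that other macrophages hold little of, such as P2RY12, TMEM119, FCRLS and SIGLEC-H, under the control of PU.1, IRF8, SALL1 and other factors. LSD1, encoded by Kdm1a, removes methyl groups from lysines of histone H3 and acts in repressor and activator complexes.

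Expression was given in RPKM, which divides the read pairs of a gene by its exon length and by the depth of the library, so that levels can be compared between genes. The sizes of the steps between low values gave depths of about 13410000, 8830000, 14380000 and 14950000 mapped pairs for WT replicate 1, WT replicate 2, KI replicate 1 and KI replicate 2, and the shallowest library was thus WT replicate 2. Kdm1a (chromosome 4, 136550540 to 136602723, mm10) stood at 11.63 and 11.18 RPKM in WT and at 10.97 and 11.17 RPKM in KI (log2 change -0.04 ± 0.06 SE, limma adjusted p = 0.872). This level is no check of the genotype, because the knock-in exchanges a residue and leaves the transcript in place. In whole hippocampus, a change in the number of microglia and a change in a transcript per microglial cell cannot be told apart. How much of each transcript came from microglia and how much from other cells was not measured.

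The labelled cell type was present by its defining markers. None of the 34 genes was at 0 in any sample, and their mean levels ran from 0.528 RPKM for Ptprc to 47.8 RPKM for Ctss, a 90.6-fold range with a median of 5.02 RPKM. Border macrophages share many of these transcripts, but their own markers were low. Mrc1, Cd163, Lyve1 and 4 further genes of a list of 8 were under 0.5 RPKM in at least 3 samples, and Stab1, which microglia also express, was the only gene of that list that could be tested. Markers of T cells and B cells were at or near 0, with Cd3e, Cd3g, Ms4a1 and the neutrophil gene Ly6g listed in no sample.

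Regulatory sequence before the start of the genes is shown first, since PU.1 (Spi1) and the MAF factors bind to many microglial genes. RefSeq (GRCm38.p6) gave the 250 bases before the start for 27 of the 34 genes. No entry was found for Tmem119, Tyrobp, Gpr34, Spi1, Csf1r, Selplg and Unc93b1. Printed below 5′ to 3′ in the direction of the gene are the windows of Ctss (chr3:95526536-95526785, plus strand), Itgam (chr7:128062390-128062639, plus strand), Cd53 (chr3:106790150-106790399, minus strand) and Olfml3 (chr3:103738002-103738251, minus strand). Ctss was higher in both KI samples, Itgam overlapped between the groups, and Cd53 and Olfml3 were lower in both KI samples, so the windows show each kind of pattern. Capitals mark the PU.1 core letters GAGGAA, or TTCCTC for the same letters on the other strand.
Ctss: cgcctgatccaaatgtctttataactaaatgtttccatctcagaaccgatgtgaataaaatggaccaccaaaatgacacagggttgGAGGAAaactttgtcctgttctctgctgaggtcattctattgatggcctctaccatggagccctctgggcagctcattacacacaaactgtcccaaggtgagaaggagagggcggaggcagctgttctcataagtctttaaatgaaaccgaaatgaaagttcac
Itgam: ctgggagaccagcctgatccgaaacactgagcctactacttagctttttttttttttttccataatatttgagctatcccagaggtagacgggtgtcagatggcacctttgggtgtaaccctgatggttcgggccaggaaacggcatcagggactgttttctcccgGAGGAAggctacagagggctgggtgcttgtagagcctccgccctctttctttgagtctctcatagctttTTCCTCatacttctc
Cd53: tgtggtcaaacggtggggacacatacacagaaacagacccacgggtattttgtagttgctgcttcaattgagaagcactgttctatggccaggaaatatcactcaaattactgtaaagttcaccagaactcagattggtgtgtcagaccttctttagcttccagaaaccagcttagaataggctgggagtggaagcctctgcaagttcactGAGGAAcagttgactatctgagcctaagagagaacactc
Olfml3: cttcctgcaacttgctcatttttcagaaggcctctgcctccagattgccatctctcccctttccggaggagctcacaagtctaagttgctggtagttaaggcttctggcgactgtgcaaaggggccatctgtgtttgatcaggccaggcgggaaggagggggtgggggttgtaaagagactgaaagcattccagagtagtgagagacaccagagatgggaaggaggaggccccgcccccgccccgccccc
The window of Ctss held the letters once, 164 bases before the start, and that of Itgam held them on each strand, the nearer match 15 bases before the start. In the window of Cd53 the match lay 39 bases before the start, and in that of Olfml3 there was none. Over all genes the letters were found in 15 of 35 windows of the listed genes (42.9%) and in 7639 of 32851 windows of the same length in RefSeq (23.3%). Counted by gene, 14 of the 27 matched genes had a match (51.9%), against 25.9% of 27025 genes. They were present in 4 of 9 genes with both KI values above both WT values, in 1 of 3 genes with both below, and in 9 of 15 genes that overlapped. The MAF half-site TGCTGAC, searched on both strands, does not contain the PU.1 core, and was found in 2 of 35 windows (5.71%), both of Fcgr3, against 3.81% of all windows. The 2 windows of Fcgr3 overlap, and counted by gene the half-site was found in 1 of the 27 matched genes (3.70%), against 4.315% of 27025 genes. These matches are descriptions of letters in a window and not of binding.

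**Figure D1:**
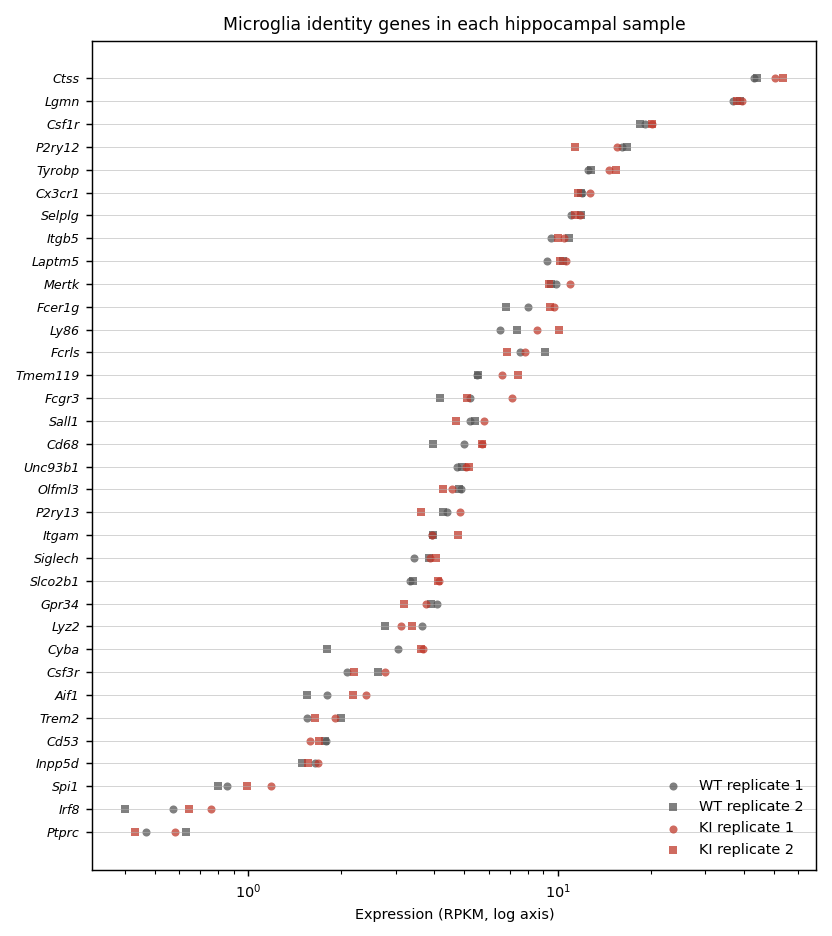
Expression of the 34 microglia genes in each hippocampal sample, ordered by mean level, in RPKM on a log axis. Grey marks are WT and red marks are KI, circles are replicate 1 and squares are replicate 2. Ctss and Lgmn lie at the top in all samples, and Irf8 and Ptprc lie at the bottom.

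By level, the genes of protein degradation in the lysosome led. Ctss, which encodes cathepsin S, made up 17.0% of the summed RPKM of the 34 genes, Ctss and Lgmn together 30.6%, and the first 6 genes (Ctss, Lgmn, Csf1r, P2ry12, Tyrobp and Cx3cr1) 52.0%. The order from Ctss to Lgmn to Csf1r to P2ry12 held in every sample, since the 4 values of each of these genes lay above the 4 values of the next. Further down, the same was true only between Selplg and Itgb5, between Inpp5d and Spi1, and between Spi1 and Irf8, that is, for 6 of the 33 neighbouring pairs in all. In the other 27 pairs the values of the neighbours overlapped, as for P2ry12 and Tyrobp, for Tyrobp and Cx3cr1 and for each pair of neighbours in the run from Itgb5 (10.2 RPKM) to Inpp5d (1.597 RPKM). Tyrobp was nevertheless above Cx3cr1 within each of the 4 samples. The 3 lineage factors differed in level, with Sall1 at 5.28 RPKM, Spi1 at 0.959 RPKM and Irf8 at 0.594 RPKM.

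No microglia gene passed the test of KI against WT. With limma on log2(RPKM + 1), 0 of the 34 genes were called, which took a fold of 1.2 or more at an adjusted p under 0.1, nor was any of the 18436 genes tested (0 called, 0.0%). The smallest adjusted p was 0.366 among the microglia genes and 0.197 among all genes. At an unadjusted p under 0.05 there were 7 microglia genes higher in KI, or 20.6%, against 1161 of all genes (6.3%), and 0 lower, against 613 of all genes (3.33%). In 14 of the 34 genes (41.2%; 24.0% of all genes) each KI sample was above each WT sample, in 4 genes each was below (11.8%; 18.1% of all genes), and 16 overlapped. The median log2 change was 0.07 over the microglia genes (0.10 without WT replicate 2) and 0.01 over all genes, and 26 of the 34 genes, as against 54.4% of all genes, had a positive value. Under quantile normalization Lyz2, Trem2 and Inpp5d, and under median-of-ratios scaling Selplg, Itgb5 and Trem2, turned to a value just below 0. Single genes ran from -0.29 (P2ry12) to 0.47 (Cyba). These figures describe the list, whose genes were read in the same 4 libraries and are not independent of each other. An exact permutation test of 2 against 2 samples cannot go below p = 0.333, so separate groups of a single gene carry no call.

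The differences between the groups were set beside those between replicates. In absolute value the median difference between the 2 WT samples was 0.08 on the log2(RPKM + 1) scale, that between the 2 KI samples 0.09, and that between the group means 0.10. These are unlike measures, because a mean of 2 samples varies less than a single sample. Their closeness thus does not show that the groups differed only as much as replicates do. For 14 genes the difference between the group means was larger than both replicate differences, with KI higher for 12 of them and lower for 2. As ratios of mean RPKM, 10 genes were at least 1.2-fold higher in KI, 1 (P2ry12) was lower by at least as much, and 23 lay between. The shares of all genes for these counts are not given here, so the counts cannot set the microglia genes apart from other genes. The full range was from 0.818 to 1.51.

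**Figure D2:**
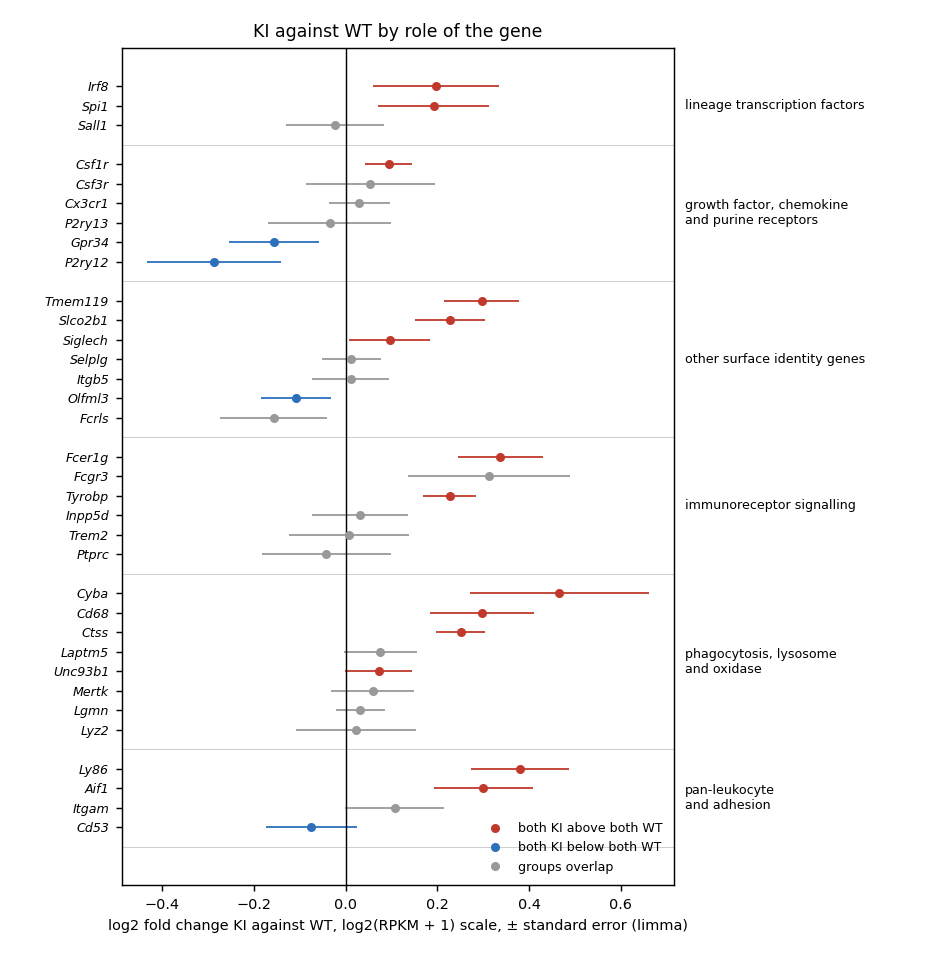
Log2 change of KI against WT for each gene on the log2(RPKM + 1) scale, with bars of ± 1 standard error from limma, grouped by role. Red, both KI values above both WT values (14 genes). Blue, both below (4 genes). Grey, overlap (16 genes). P2ry12 (-0.29) and Cyba (0.47) mark the ends.

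Among the lineage transcription factors, Spi1 encodes PU.1, the factor that all macrophages need. It was at 0.858 and 0.799 RPKM in WT and at 1.19 and 0.993 RPKM in KI (log2 change 0.19 ± 0.12 SE, limma adjusted p = 0.654; 0.35 with a pseudocount of 0.1 and 0.12 without KI replicate 1). Irf8, a partner of PU.1, was at 0.571 and 0.401 RPKM in WT and at 0.759 and 0.645 RPKM in KI (0.20 ± 0.14, limma adjusted p = 0.685), and the log2 change was 0.46 with a pseudocount of 0.1 and 0.12 without WT replicate 2. For both genes each KI value was above each WT value, from as few as 19 read pairs for Spi1 and 25 for Irf8 in WT replicate 2. Sall1, the factor that holds microglia apart from other macrophages, showed no separation of the groups, with 5.22 and 5.41 RPKM in WT and 5.77 and 4.71 RPKM in KI (log2 change -0.02).

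The growth factor, chemokine and purine receptors had the lowest ratio of summed RPKM, KI over WT, of the 6 roles, 0.968. Their sum was 57.9 RPKM in each WT sample and 59.8 and 52.3 RPKM in KI, so the groups overlapped. Csf1r, the receptor for CSF1 and IL-34, stood at 19.2 and 18.5 RPKM in WT and at 20.2 and 20.1 RPKM in KI (log2 change 0.09 ± 0.05 SE, limma adjusted p = 0.611). The KI samples were close to each other and both above WT, at a ratio of the means near 1.07. Cx3cr1, the receptor for the neuronal chemokine CX3CL1, was at 12.0 and 11.9 RPKM in WT and at 12.7 and 11.7 RPKM in KI (0.03 ± 0.07, limma adjusted p = 0.918), and KI replicate 2 was lower than both WT samples.
P2ry12, the ADP receptor that guides microglial processes to sites of injury, had the most negative value of the 34 genes. It was at 16.1 and 16.8 RPKM in WT, at 15.5 RPKM in KI replicate 1 and at 11.4 RPKM in KI replicate 2 (log2 change -0.29 ± 0.15 SE, limma adjusted p = 0.587). Most of the difference came from KI replicate 2, and without that sample the log2 change was -0.08, whereas without KI replicate 1 it was -0.49. The neighbouring purine receptor gene P2ry13 on chromosome 3 was also lowest in KI replicate 2, with 4.40 and 4.26 RPKM in WT and 4.85 and 3.63 RPKM in KI (log2 change -0.03). Gpr34, a receptor for lysophosphatidylserine, had 4.07 and 3.90 RPKM in WT and 3.76 and 3.20 RPKM in KI (-0.16 ± 0.10, limma adjusted p = 0.655). Here both KI samples were below both WT samples, KI replicate 2 was again the lowest, and the log2 change was -0.07 without it and -0.25 without KI replicate 1. Csf3r, the receptor for granulocyte colony stimulating factor, lies 10.5 Mb from Kdm1a and overlapped between the groups (log2 change 0.05).

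Other surface identity genes had values in both directions, 3 of 7 with both KI values above (24.0% of all genes) and 1 with both below (18.1% of all genes). Tmem119, a membrane protein used to tell microglia from infiltrating macrophages, was at 5.51 and 5.53 RPKM in WT and at 6.61 and 7.43 RPKM in KI (log2 change 0.30 ± 0.08 SE, limma adjusted p = 0.458). The WT samples were nearly equal, and both KI samples were above them. Slco2b1, an organic anion transporter, was at 3.33 and 3.41 RPKM in WT and at 4.13 and 4.11 RPKM in KI (0.23 ± 0.08, limma adjusted p = 0.491), with replicates that differed by far less than the groups. Siglech, a sialic acid binding lectin, lay above WT in both KI samples by a log2 change of 0.10, which was 0.03 without WT replicate 1 and 0.16 without WT replicate 2. In the other direction, Olfml3, a secreted matrix protein, had 4.88 and 4.79 RPKM in WT and 4.57 and 4.27 RPKM in KI (-0.11 ± 0.08, limma adjusted p = 0.691), a log2 change that was -0.07 without KI replicate 2. Fcrls, an Fc receptor-like protein, overlapped, with a log2 change of -0.16 and the highest value, 9.12 RPKM, in WT replicate 2. Its log2 change was -0.03 without that sample, -0.28 without WT replicate 1, -0.07 without KI replicate 2 and -0.24 without KI replicate 1. Selplg, the ligand of selectins, and Itgb5, an integrin subunit, had log2 changes of 0.01 each and overlapped, and for both the sign turned under median-of-ratios scaling.

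Immunoreceptor signalling genes had a higher sum in KI, at 29.4 and 27.9 RPKM in WT and 35.7 and 33.6 RPKM in KI, a ratio of 1.21. Tyrobp, the ITAM adaptor DAP12 through which TREM2 signals, was at 12.6 and 12.9 RPKM in WT and at 14.7 and 15.4 RPKM in KI (log2 change 0.23 ± 0.06 SE, limma adjusted p = 0.435). Fcer1g, the common gamma chain of the activating Fc receptors, was at 8.013 and 6.797 RPKM in WT and at 9.735 and 9.448 RPKM in KI (0.34 ± 0.09, limma adjusted p = 0.455). Both adaptors thus lay higher in both KI samples. Of the receptors in this role that pair with them, Trem2 and Fcgr3 overlapped between the groups. Trem2, a lipid sensing receptor, was at 1.55 and 1.99 RPKM in WT and at 1.91 and 1.65 RPKM in KI (log2 change 0.01). Fcgr3, a low affinity IgG receptor, was at 5.20 and 4.18 RPKM in WT and at 7.13 and 5.09 RPKM in KI (0.31 ± 0.18, limma adjusted p = 0.617), and its WT replicate 1 value was above that of KI replicate 2. The log2 change of Fcgr3 was 0.10 without KI replicate 1, 0.52 without KI replicate 2 and 0.18 without WT replicate 2. Only uniquely mapped pairs were used, so the value of Fcgr3, which has a close relative in Fcgr2b, is uncertain. Inpp5d, the inhibitory phosphatase SHIP1, and Ptprc, the phosphatase CD45, overlapped with log2 changes of 0.03 and -0.04.

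Genes of phagocytosis, the lysosome and the oxidase had positive log2 changes in 8 of 8 cases (54.4% of all genes), though 4 of the 8 overlapped between the groups, and these 4 turned negative in at least 1 alternative (Lyz2 under quantile normalization, Lyz2 and Lgmn with the exon length correction, and Lyz2, Lgmn, Laptm5 and Mertk with 1 sample left out). Ctss (chromosome 3, 95526786 to 95556403), a cysteine protease that cuts the invariant chain of MHC class II, had the smallest p of the 34 genes. It was at 43.0 and 44.2 RPKM in WT and at 50.5 and 53.7 RPKM in KI (log2 change 0.25 ± 0.05 SE, unadjusted p = 0.00639 and adjusted p = 0.366 by limma). All samples had at least 530 read pairs on Ctss, and both KI samples were above both WT samples. Lgmn, the asparaginyl endopeptidase that activates cathepsins, was nearly as abundant and did not separate, with 37.0 and 39.0 RPKM in WT and 39.6 and 38.1 RPKM in KI (0.03 ± 0.05, limma adjusted p = 0.886).
Cyba, the p22-phox subunit of the phagocyte NADPH oxidase, had the largest log2 change, 0.47 ± 0.20 SE (limma adjusted p = 0.537). Its values were 3.05 and 1.79 RPKM in WT and 3.67 and 3.62 RPKM in KI. The low value of WT replicate 2 rested on 16 read pairs, the fewest of any of these genes in any sample, and the log2 change was 0.20 without that sample and 0.73 without WT replicate 1. Cd68, a lysosomal glycoprotein, was at 4.98 and 3.97 RPKM in WT and at 5.70 and 5.69 RPKM in KI (0.30 ± 0.11, limma adjusted p = 0.516), where WT replicate 2 was again the low one and the log2 change without it was 0.16. Unc93b1, which carries Toll-like receptors to endosomes, lay above WT in both KI samples by a log2 change of 0.07. Mertk, a receptor for phosphatidylserine bridges on dying cells, Laptm5, a lysosomal membrane protein, and Lyz2, a lysozyme, overlapped, with log2 changes of 0.06, 0.08 and 0.02. Laptm5 lies 5.61 Mb from Kdm1a. The value of Lyz2 is uncertain in the same way as that of Fcgr3, because Lyz1 is nearly identical.

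The pan-leukocyte and adhesion genes summed to 14.0 and 14.7 RPKM in WT and to 16.5 and 18.8 RPKM in KI, a ratio of 1.23, of which Ly86 gave the most. Ly86, or MD-1, forms a complex with CD180 on the surface of phagocytes and was at 6.51 and 7.39 RPKM in WT and at 8.58 and 10.1 RPKM in KI (log2 change 0.38 ± 0.11 SE, limma adjusted p = 0.466). Aif1, which encodes IBA1, the actin binding protein stained to show microglia, was at 1.80 and 1.55 RPKM in WT and at 2.41 and 2.18 RPKM in KI (0.30 ± 0.11, limma adjusted p = 0.506). Both genes were higher in both KI samples, Aif1 on 21 to 53 read pairs a sample. Itgam, the CD11b integrin subunit, was level in WT and KI replicate 1 and high in KI replicate 2, with 3.94 and 3.96 RPKM in WT and 3.92 and 4.78 RPKM in KI (log2 change 0.11). Cd53, a tetraspanin, had 1.78 RPKM in each WT sample and 1.59 and 1.70 RPKM in KI (-0.07 ± 0.10, limma adjusted p = 0.848), and the log2 change was -0.05 without KI replicate 1.

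**Figure D3:**
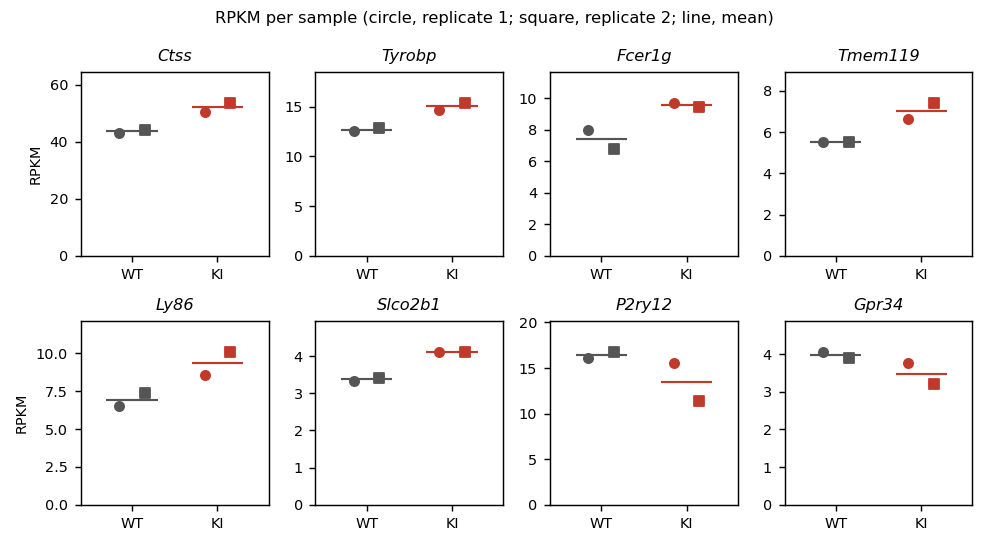
RPKM in each sample for the 6 genes with the smallest p (Ctss, Tyrobp, Fcer1g, Tmem119, Ly86 and Slco2b1) and for P2ry12 and Gpr34, which lay lower in both KI samples. Circles are replicate 1, squares are replicate 2, lines are means of 2 samples, and each axis starts at 0. P2ry12 is 15.5 RPKM in KI replicate 1 and 11.4 RPKM in KI replicate 2.

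Summed over all 34 genes, expression was 268.7 and 273.2 RPKM in WT and 298.3 and 288.3 RPKM in KI. The means were 271.0 ± 3.2 RPKM (SD, n = 2) and 293.3 ± 7.0 RPKM (SD, n = 2), and KI was thus 8.24% higher with an exact two-sided permutation p of 0.333, the smallest that 2 against 2 allows. Without Ctss the sums were 225.7 and 229.0 RPKM in WT and 247.8 and 234.6 RPKM in KI, a ratio of 1.06. The excess was not shared equally by the KI samples. KI replicate 1 had the highest of the 4 values for 17 genes and KI replicate 2 for 7, whereas KI replicate 2 had the lowest value for 9 genes and KI replicate 1 for 2. Relative to the WT mean, the median gene stood at 0.10 on the log2 scale in KI replicate 1 and at 0.05 in KI replicate 2.

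Exon length moved with the comparison over all genes. The median log2 change fell across length classes from 0.05 in genes of up to 1000 bases of exon to -0.02 in genes over 8000 bases, and the share of genes with both KI values above both WT values was 23.0% in the first class, 28.4% in each of the next 2 classes, 23.4% from 4000 to 8000 bases and 15.9% over 8000 bases. The microglia genes had a median exon length of 3207 bases, against 3474 bases for all genes. Those with both KI values above had a median of 2505 bases, those with both below 2318 bases, and those that overlapped 4030 bases. Up to 2000 bases, 6 of 9 microglia genes were above and 1 below. Over 4000 bases, 3 of 12 were above and 1 below. With the trend on exon length taken out of the log2 values, the median over the microglia genes was 0.04 and that over all genes 0.00, and again 14 genes were above, 4 below and 0 past the threshold.

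**Figure D4:**
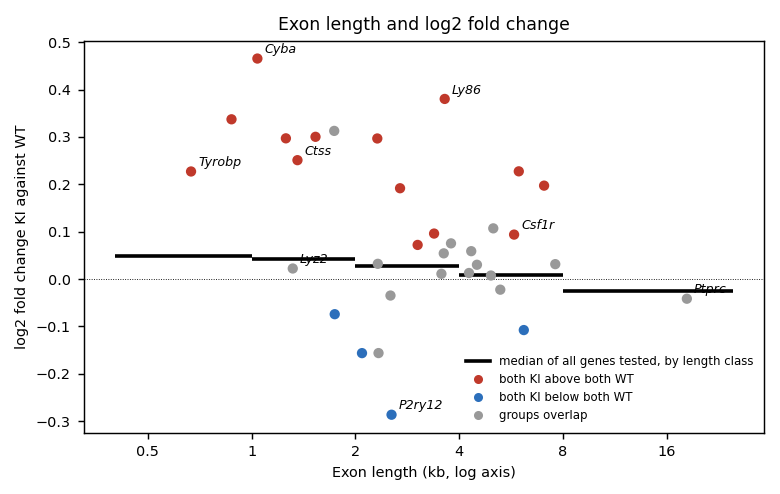
Log2 change of KI against WT on the log2(RPKM + 1) scale by exon length (log axis, kb) for the 34 microglia genes, coloured by whether the groups separate. Black bars are the medians of all genes tested in 5 length classes, from 0.05 in the shortest to -0.02 in the longest. Most microglia genes under 2 kb lie above the bar of their class.

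Of 8 genes for ligands of the listed receptors 7 could be tested, and 0 had an unadjusted p under 0.05 in either direction. Il34, the neuronal ligand of CSF1R, was at 15.6 and 17.9 RPKM in WT and at 20.8 and 16.4 RPKM in KI (log2 change 0.13), and Clu, a lipoprotein bound by TREM2, had a log2 change of 0.11 with both KI values above. Csf3, the ligand of CSF3R, was listed at 0 in a WT and in a KI sample. Of 17 genes for partners of the listed proteins, 15 could be tested, with 1 at an unadjusted p under 0.05 higher in KI (6.3% of all genes) and 0 lower (3.33%), 7 with both KI values above (24.0%) and 1 with both below (18.1%). Ncf1, the p47-phox subunit that works with p22-phox, was at 1.71 and 1.58 RPKM in WT and at 2.37 and 2.17 RPKM in KI (log2 change 0.31).

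Microglial genes outside the list were read for comparison. Of 26 further microglia markers 20 could be tested, 4 at an unadjusted p under 0.05 were higher in KI (6.3% of all genes) and 1 lower (3.33%), with 10 genes above (24.0%), 2 below (18.1%) and a median log2 change of 0.10. Crybb1, a crystallin gene of immature microglia, was at 1.97 and 0.920 RPKM in WT and at 2.89 and 2.38 RPKM in KI (0.60, limma adjusted p = 0.519). Its value in WT replicate 2 rested on 8 read pairs, and the log2 change was as low as 0.29 with 1 sample left out. C1qa, a chain of complement C1q, was at 27.7 and 29.4 RPKM in WT and at 39.3 and 43.2 RPKM in KI (0.51, limma adjusted p = 0.307). The genes C1qa, C1qb and C1qc lie 0.28 to 0.29 Mb from Kdm1a, beside the site of the knock-in, and effects of the knock-in region and of the mutation on them cannot be told apart. Of 22 genes raised in activated microglia 12 could be tested, 3 with an unadjusted p under 0.05 were higher in KI (6.3% of all genes) and 0 lower (3.33%). In this list 9 genes were above (24.0%) and 1, Gpnmb, below (18.1%), with a median log2 change of 0.14. The genes not tested, among them Cst7, Itgax, Clec7a, Il1b and Tnf, were under 0.5 RPKM in every sample, and Ccl2 was listed in none. Those tested included Cst3, Ctsd and Ctsb, whose means of 567, 107 and 87.7 RPKM lay above that of every gene of the microglia list. Ctsz, another lysosomal cathepsin, was at 21.7 and 22.1 RPKM in WT and at 32.9 and 31.7 RPKM in KI (0.54, limma adjusted p = 0.307), and Cd74, the invariant chain, was at 0.634 and 0.803 RPKM in WT and at 1.83 and 1.23 RPKM in KI (0.55). The WT values of Cd74 rested on 14 and 12 read pairs, and its log2 change was as low as 0.38 with 1 sample left out. No gene of any of these lists passed the threshold.

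**Figure D5:**
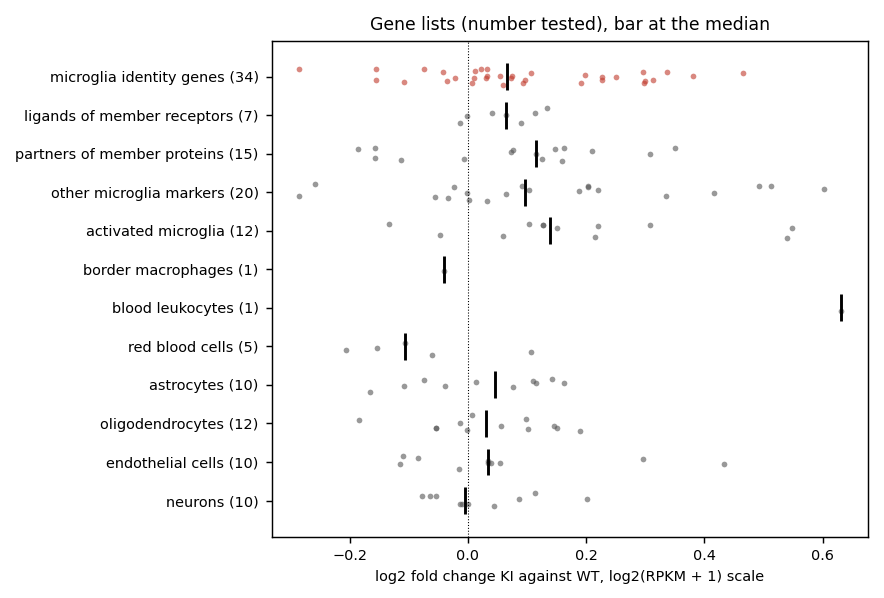
Log2 change of KI against WT on the log2(RPKM + 1) scale for every tested gene of the microglia list (red) and of the comparison lists (grey), with the number tested and a black bar at the median. The medians are 0.07 for the 34 microglia genes, 0.10 for other microglia markers and -0.01 for neurons.

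Other cell types were read in the same way, with microglia genes and markers of other cells taken from the same libraries. Border macrophage markers summed to 2.52 to 3.08 RPKM in WT and to 2.77 to 3.43 RPKM in KI and overlapped, Stab1 having a log2 change of -0.04. Of 12 blood leukocyte markers 8 were listed, with sums of 1.45 to 1.94 RPKM in WT and of 2.70 to 2.80 RPKM in KI, so the groups separated. Of these only Ly6c2 could be tested, at 0.749 and 1.14 RPKM in WT and 1.75 and 2.27 RPKM in KI (0.63, limma adjusted p = 0.435). This gene made up most of the sum in every sample, and the separation of the sums rested on it. Each of the other listed markers stood at 0.571 RPKM or less in every sample. Ly6c2 is nearly identical to the endothelial gene Ly6c1 (log2 change 0.43), and reads of these genes are hard to tell apart. Endothelial markers summed to 94.7 to 102.2 RPKM in WT and to 105.6 to 109.1 RPKM in KI, a ratio of 1.091 beside 1.082 for the microglia genes. Much of this difference lay in Ly6c1, at 20.8 and 22.5 RPKM in WT and 26.5 and 33.1 RPKM in KI. Pecam1 was also higher in both KI samples, at 3.21 and 3.55 RPKM in WT and 4.13 and 4.62 RPKM in KI (log2 change 0.30, limma adjusted p = 0.490). Of the 10 endothelial genes, 4 were above (24.0% of all genes) and 3 below (18.1%), and their median log2 change was 0.03. At an unadjusted limma p under 0.05, 2 of them were higher in KI (6.3% of all genes) and 0 lower (3.33%). Astrocyte markers summed to 530.3 to 533.3 RPKM in WT and to 542.2 to 547.6 RPKM in KI, a ratio of 1.025. Of the 10 astrocyte genes, 5 were above (24.0% of all genes) and 3 below (18.1%), with a median log2 change of 0.045. At an unadjusted limma p under 0.05, 1 was higher in KI (6.3% of all genes) and 1 lower (3.33%). These were Acsbg1 (log2 change 0.16, limma adjusted p = 0.482) and Aqp4 (-0.17, limma adjusted p = 0.490). Neuron, oligodendrocyte and red blood cell sums overlapped between the groups, at ratios of 0.995, 1.04 and 0.963. The part of these values in the microglial differences was not tested.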

How the data were processed

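The microglia genes and every comparison list were chosen with earlier results of these data known. Poly(A) RNA of hippocampus (2 WT, 2 KI; TRIzol, TruSeq libraries) was sequenced in pairs on a HiSeq 2000. GSNAP served the authors for alignment to mm10, pairs mapped uniquely and properly were retained, and 1 table per sample was deposited by the authors in RPKM on the genes of Ensembl release 74, with no further scaling stated. The authors used edgeR, which needs counts. Since the deposited values are RPKM, limma (version 3.58.1, R 4.3.3) with a mean-variance trend was used here on log2(RPKM + 1), a scale that understates changes of low genes. A gene absent from a sample was given 0. A gene entered if 2 or more samples reached 0.5 RPKM (18436 genes), p-values were adjusted by Benjamini-Hochberg over all of them, and genes were called at a fold of 1.2 or more with an adjusted p under 0.1. The code was tested on simulated data. The study's own method names 1.5-fold, tried as an alternative.

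Symbols matched 25729 of 26328 gene IDs. Positions and exon lengths are from GENCODE M21 (GRCm38). Depth was worked out from RPKM steps, with 79.9% to 81.2% of low values within 0.05 of a whole number of pairs. The pairs given per gene rest on this depth and were not tested. Promoter windows are from RefSeq, and motifs were searched on both strands. Each RefSeq entry runs 50 bases past the start, and its last 20 bases were found in a GENCODE transcript of the gene for 25 of 27 genes, all except Mertk and P2ry12. All 34 genes are named, those with the 6 smallest p or the 6 highest means with every sample's value. From each other list come the 2 genes with the largest absolute log2 change among those tested, except 1 gene that is not reported here. Other genes named were chosen after their values were seen. In all, 13 limma fits were made. Labels give no batch. The rest was done in Python 3.11.15 (scipy 1.17.1, numpy 2.4.6, pandas 2.3.3).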

Additional observations from a re-analysis of the deposited data

How the results depend on the processing

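With 2 samples in each group and WT replicate 2 at about 0.658 of the depth of WT replicate 1, 7 of the 34 genes rested on fewer than 50 read pairs in at least 1 sample, and none of the differences described was called. The number of microglia genes past the threshold was 0 in each alternative run (pseudocount of 0.1, no filter, at least 1 RPKM in every sample, replicate block, no mean-variance trend, quantile normalization, median-of-ratios scaling, 1.5-fold, leaving out the 2 genes within 20 Mb of Kdm1a, leaving out each sample, and the exon length correction, which was added after seeing the data). Without the mean-variance trend 20 of all genes passed, where 0 passed otherwise, and none was a microglia gene. The cause was not tested. With each sample left out in turn, genes with all KI values above all WT values numbered 15 to 23 (23 without KI replicate 2) and those below 5 to 10 (9 without WT replicate 1 and 10 without KI replicate 1), which fewer samples allow by construction. The median log2 change was 0.055 to 0.10 (0.10 without WT replicate 2, where the lone WT sample is assumed to vary like the KI samples) and the ratio of the sums was 1.064 to 1.101. In the other alternatives the median was 0.04 to 0.08 and the ratio 1.07 to 1.08. The sign was kept by 20 genes (15 higher and 5 lower in KI) in all 12 alternative fits, or in 11 for Spi1 and Irf8, which the filter of at least 1 RPKM in every sample left out. The other 14 all had an absolute log2 change of at most 0.107. Quantile normalization gave -0.0056 for Lyz2, -0.0423 for Trem2 and -0.0183 for Inpp5d. Median-of-ratios scaling gave -0.0029 for Selplg, -0.0044 for Itgb5 and -0.0032 for Trem2. The exon length correction gave -0.0049 for Lgmn, -0.0039 for Selplg, -0.0103 for Itgb5, -0.0234 for Lyz2, -0.0055 for Trem2 and 0.0034 for Ptprc. Leaving out 1 sample gave -0.0049 to 0.069 for Lgmn, -0.0358 to 0.0613 for Selplg, -0.0769 to 0.0989 for Itgb5, -0.0038 to 0.1544 for Laptm5, -0.0641 to 0.1726 for Csf3r, -0.1074 to 0.1222 for Trem2, -0.1285 to 0.1729 for Lyz2, -0.0128 to 0.0756 for Inpp5d, -0.1166 to 0.0335 for Ptprc, -0.0267 to 0.0868 for Cx3cr1, -0.0439 to 0.1616 for Mertk, -0.1453 to 0.1003 for Sall1, -0.2033 to 0.1335 for P2ry13 and -0.0104 to 0.2244 for Itgam. The groups share only replicate numbers, and same-numbered samples did not deviate together (correlation of deviations over genes -0.02). With the replicate block 0 genes and 0 microglia genes passed, the median log2 change was 0.07, and the smallest adjusted p of a microglia gene by limma was 0.433 (Ly86).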
